A study of Mus musculus with 6 samples.

Results

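The genes described here copy DNA in S phase. They are 49 mouse genes taken from a list of names. All 49 were found by symbol among the 55401 genes of the deposited expression table, and all 49 are among the 10661 genes tested. The list covers origin recognition and licensing, the MCM helicase, helicase activation, polymerases and primase, the sliding clamp and its loader, single-stranded DNA binding, Okazaki fragment maturation, deoxynucleotide supply, DNA methylation and chromatin assembly behind the fork, and fork protection. The list was not chosen by measured values, although results of these data were known when it was drawn up.

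RNA-seq was made from cultures labelled as female germline stem cells (FGSCs), with 3 control libraries and 3 libraries from cultures given 1 μM metformin, a biguanide antidiabetic drug, for 24 h. All 6 come from the C57BL/6 strain at more than 20 passages, and all were grown on mitotically inactivated STO feeder cells with leukemia inhibitory factor, epidermal growth factor, basic fibroblast growth factor and glial cell line-derived neurotrophic factor. The culture is described as 1 line, the controls are labelled as having no treatment, and the libraries are numbered as repeats. The study's methods state in general terms that experiments were repeated, but neither they nor the labels say whether the 3 libraries of a group came from separate cultures. The p-values therefore measure only the spread between these libraries, which may be technical.

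Before a cell can copy its DNA, the origin recognition complex (ORC), CDC6 and CDT1 load the MCM2-7 helicase on origins, which is called licensing. In S phase the kinase pair CDC7 and DBF4 and the proteins MCM10, CDC45 and GINS turn the loaded helicase into a moving fork. Polymerase alpha with primase starts each strand, the RFC clamp loader places the PCNA ring, and polymerases delta and epsilon extend. Most of these genes are known targets of the E2F transcription factors, so their RNA is high in dividing cells and low in resting ones.

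For this reason promoter stretches of 80 bases are shown for 3 members, each upstream of the gene as the deposited table places it. Sequences are from RefSeq with GRCm38.p6 positions, 5′ to 3′ on the strand of the gene, and capitals mark matches to the E2F-type letters TTTCCCGC, TTTCGCGC, TTTGCCGC or TTTGGCGC or their reverse complements, overlapping matches merged.
Mcm5 (chr8:75109322-75109401, plus strand): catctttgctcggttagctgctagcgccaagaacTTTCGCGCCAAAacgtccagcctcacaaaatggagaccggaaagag
Mcm6 (chr1:128359741-128359820, minus strand): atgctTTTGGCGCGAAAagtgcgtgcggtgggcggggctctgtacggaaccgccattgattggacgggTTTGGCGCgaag
Pola1 (chrX:93632250-93632329, minus strand): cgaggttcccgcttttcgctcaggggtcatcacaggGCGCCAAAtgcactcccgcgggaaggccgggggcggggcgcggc
Mcm5 and Mcm6 encode subunits of the helicase, and Pola1 is among the members that were lower with metformin at an unadjusted p under 0.05.

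Promoter windows that begin 250 bases before the start and take in its first bases were given for 41 of the 49 members. On either strand, 16 of the 41 (39.0%) held at least 1 of the 4 E2F-type strings in a window, against 2.61% of all 27025 genes with a window. These 27025 are not limited to tested genes, as the members are, and no share was taken over tested genes alone. A narrower set without TTTGCCGC gave 39.0% of members and 2.12% of genes, and that set with TTTGGCGG added gave 46.3% and 2.70%. These string sets were compared with the data at hand. CCAAT stood in 63.4% of member windows and 41.1% of all genes, and GGGCGG in 73.2% and 38.2%. A match is a description of the letters in this window and not a site. Of the 16 members with a match, 8 had a higher and 8 a lower mean log2 value with metformin, with a median log2 fold change of -0.00045. Of the 25 without a match, 9 were higher and 16 lower, with a median of -0.015. Of the 11 members at an unadjusted p under 0.05, Pola1, Pold1, Uhrf1 and Clspn had a match, Rfc4, Pold2, Pcna, Dbf4 and Rfc1 had a window with no match in these letters, and Gins2 and Rfc2 had no window.

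All 49 members were well above the filter of a mean of 1 FPKM (fragments mapped to a gene, scaled for transcript length and for the depth of the library). Their mean levels ran from 6.68 FPKM for Gins3 to 173 FPKM for Mcm3, and 47 of 49 were above the median level of the tested genes. Summed over the members, the controls had 1969, 1982 and 1988 FPKM and the metformin libraries 1943, 1956 and 1995 FPKM. The groups overlapped, and the members made up 0.606% to 0.624% of the total FPKM of a library. The libraries held an estimated 13400000 to 14000000 mapped fragments each. By their annotated length, the member with the fewest fragments had about 223 in a library, for which counting error alone is 6.70%.

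No member rose or fell at an adjusted p under 0.05 by limma, against 3 of 10661 genes (0.0281%) over the whole table, and the smallest adjusted p of a member was 0.301, for Rfc4. At an unadjusted p under 0.05, 4 members were higher with metformin (8.16% of the 49) where 6.03% of all tested genes were, and 7 were lower (14.3%) where 4.81% were. The groups did not overlap in 12 members. In 5 (10.2%) the metformin libraries were the higher ones, against 8.89% of all tested genes, and in 7 (14.3%) the lower ones, against 8.10%. The 95% interval of the log2 fold change lay within 0.3 of 0 for 49 of 49 members and within 0.2 for 40, and its outermost bounds were -0.28 for Rpa3 and 0.28 for Gins2, or 0.822-fold and 1.22-fold. Of all tested genes, which reach down to a mean of 1 FPKM, 83.2% had an interval within 0.3. No such share was taken for genes at the members' levels. The median log2 fold change was -0.0087 over the members and 0.0041 over all tested genes, and the median of its absolute size was 0.049 for both. Among the 6146 tested genes within the members' range of mean FPKM, the latter was 0.042. With the filter raised to a mean of 10 FPKM, 4 of 46 members were higher and 8 lower at an unadjusted p under 0.05, against 7.85% and 6.38% of 5096 genes. At that filter, 5 of the 46 were higher without overlap and 6 lower, against 11.3% and 9.95% of these genes.

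The counts at an unadjusted p changed when a trend on GC content was removed and when single libraries were left out. They also changed when the fit had no trend on the mean level. That fit gave 3 higher and 4 lower members, against 5.17% and 4.56% of all tested genes. Across the 49 members the log2 fold change was higher at higher GC content of the transcript (Spearman's rho 0.620, Pearson's r 0.651), as it was across 9302 tested genes with a GC value (rho 0.422, r 0.367). Genes are not independent replicates, and these values share the same 6 libraries. The 4 higher members had 53.4% to 60.7% GC and the 7 lower ones 41.5% to 53.7%. With the trend on GC removed, an alternative chosen after seeing the data, 1 member was higher and 4 were lower at an unadjusted p under 0.05, against 3.67% and 4.10% of 9302 genes. Gins2, Rfc4, Uhrf1 and Clspn were those of the 11 that kept it, and Mcm3 was the other lower member. Dbf4, Pcna and Rfc1 then had log2 fold changes of -0.087, -0.064 and -0.063 with unadjusted p of 0.0562, 0.0509 and 0.0538. The lower count was 4 without control 2, without control 3 or without metformin 1, and 3 without metformin 2, against 3.69% to 4.77% of all tested genes over these fits and those without the other libraries. Members above the controls without overlap numbered 10 without control 3, 9 without metformin 1 and 8 without metformin 2, and members below them 13 without control 1 or without metformin 3. With 1 library fewer, the groups of 13.8% to 14.7% of all tested genes did not overlap and were higher, and those of 12.2% to 13.1% were lower. The part of GC content in each result was not tested further.

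**Figure D1:**
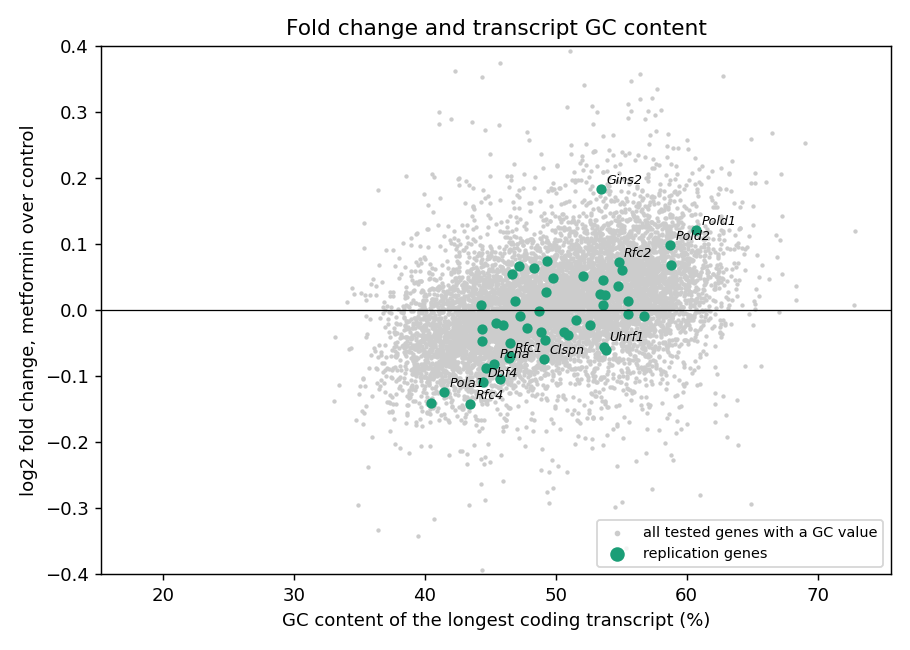
Log2 fold change (metformin over control, on log2(FPKM + 1)) against the GC content of the longest protein-coding transcript, for the 49 replication genes in green and for the 9302 tested genes with a GC value in grey, 17 of which lie outside the plotted range of 0.4. Members at an unadjusted p under 0.05 carry their names, and the members run from lower left to upper right (rho 0.620).

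Most markers of the labelled cell type were at or near 0. For its FGSC line the study reported RNA of Pou5f1, Ddx4, Dppa3, Ifitm3, Dazl and Prdm1 by RT-PCR, and DDX4 protein by immunofluorescence. The reason for this difference was not tested. Of 10 germ cell markers, 1 (Zbtb16) had a mean of at least 1 FPKM, and Dazl, Pou5f1, Dppa3, Sall4, Gfra1 and Stra8 were at 0 in all 6 libraries. The germ cell list summed to 1.56 to 2.55 FPKM in the controls and 1.55 to 1.83 FPKM with metformin. Of 12 fibroblast markers that feeder cells would bring, 0 had a mean of 1 FPKM and Lum was at 0 in all libraries, with sums of 0.83 to 1.03 and 0.83 to 0.86 FPKM. All 10 blood cell markers were above 1 FPKM, with sums of 828 to 866 FPKM in the controls and 820.1 to 843 FPKM with metformin. Of the blood cell markers, 2 were higher and 1 lower at an unadjusted p under 0.05, where 6.03% and 4.81% of all tested genes were. The higher ones were Lyl1 and Vav1, with log2 fold changes of 0.14 and 0.097, and the lower one was Cpa3, with -0.11. The part of these markers in the member values was not tested. In RNA from whole cultures, fewer cells of a type and less RNA per cell cannot be told apart.

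**Figure D2:**
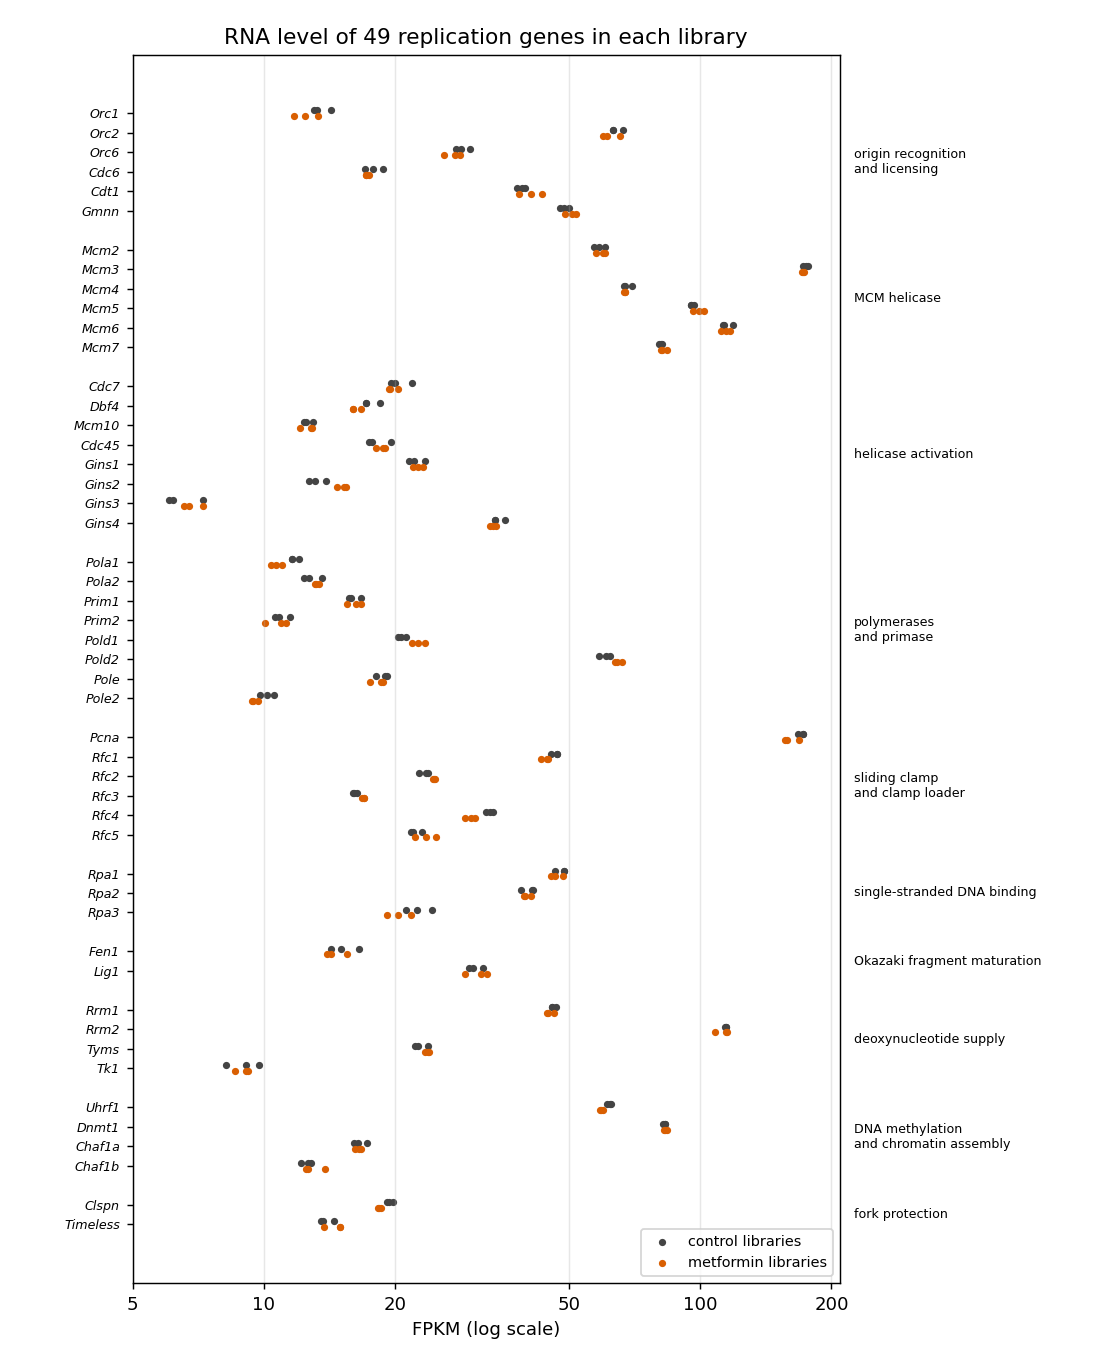
RNA level (FPKM, log scale) of each of the 49 genes in the 3 control libraries (grey) and the 3 metformin libraries (orange), grouped by role. Mean levels span 6.68 FPKM (Gins3) to 173 FPKM (Mcm3), and for most genes the 2 groups overlap.

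Origin recognition and licensing held 6 members, none of which passed an unadjusted p of 0.05 or had groups without overlap. Orc2, a core ORC subunit, was the highest, with 63.0, 66.5 and 63.2 FPKM in the controls and 61.0, 60.0 and 65.6 FPKM with metformin. Orc1, the ORC subunit whose level swings with the cell cycle, was the lowest, with 13.2, 13.0 and 14.2 FPKM in the controls and 11.7, 13.3 and 12.4 FPKM with metformin. The groups overlapped in both, with log2 fold changes of -0.047 (-0.14 to 0.046) and -0.10 (-0.23 to 0.021). Cdt1, which loads the helicase, averaged 38.9 ± 0.8 FPKM (SD, n = 3) and 40.9 ± 2.5 FPKM, and Gmnn, the geminin that blocks CDT1, 48.9 ± 1.1 and 50.6 ± 1.4 FPKM. Geminin RNA was 1.21 to 1.28 times that of Cdt1 in the controls and 1.18 to 1.35 times with metformin. The values of Orc6 (28.5 ± 1.1 and 27.2 ± 1.2 FPKM) and of Cdc6 (17.8 ± 0.83 and 17.2 ± 0.18 FPKM) did not pass an unadjusted p of 0.05 either.

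The 6 subunits of the MCM helicase, the ring that unwinds the parental duplex, had log2 fold changes of -0.022 to 0.051. Mcm3 was highest, with 172, 175 and 177 FPKM in the controls and 171, 172 and 173 FPKM with metformin. Mcm6 followed with 113, 119 and 114 FPKM in the controls and 112, 117 and 115 with metformin, and Mcm5 with 96.6, 95.1 and 95.3 FPKM in the controls and 96.2, 99.5 and 102 with metformin. In Mcm7 the controls read 80.4, 81.2 and 81.6 FPKM and the metformin libraries 81.3, 81.8 and 84.1 FPKM. Each subunit named so far kept its place in the order in all 6 libraries, and the groups overlapped within each. Mcm4 had 69.9, 67.0 and 67.3 FPKM in the controls and 66.8, 67.4 and 67.3 FPKM with metformin. Mcm2, the lowest, had 57.2, 58.7 and 60.4 FPKM in the controls and 57.7, 59.8 and 60.5 with metformin. The order Mcm3, Mcm6, Mcm5, Mcm7, Mcm4, Mcm2 was without overlap between neighbours across the 6 libraries. The largest difference between groups was in Mcm5, with a log2 fold change of 0.051 (-0.0094 to 0.11), and its unadjusted p was 0.0861. The Mcm7 gene overlaps 2 expressed genes on the other strand, Cops6 at 67.2 FPKM by 64 bp and Ap4m1 at 5.28 FPKM by 421 bp.

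Helicase activation held 8 members, with 1 higher and 1 lower at an unadjusted p under 0.05, where 6.03% and 4.81% of all tested genes were. Gins2 (ENSMUSG00000031821, chr8:120578633-120589304, minus strand), a subunit of the GINS complex that joins the helicase to its activator CDC45, had the largest difference of all members. It read 13.1, 13.9 and 12.7 FPKM in the controls and 15.3, 14.7 and 15.4 FPKM with metformin. Every metformin library was above every control, by a log2 fold change of 0.18 (SE 0.042, 95% interval 0.085 to 0.28), with an unadjusted p of 0.00301 and a limma adjusted p of 0.320. Its gene overlaps Gse1, at 6.41 FPKM, on the other strand by 2758 bp. The other GINS subunits had overlapping groups. Gins4, the highest in this group, had 33.9, 35.6 and 33.8 FPKM in the controls and 33.1, 33.5 and 34.0 with metformin, and Gins3, the lowest of all members, 6.2, 7.25 and 6.07 FPKM in the controls and 6.55, 7.26 and 6.74 with metformin. Gins1 averaged 22.3 ± 0.93 and 22.6 ± 0.57 FPKM. Their intervals were -0.11 to 0.031, -0.096 to 0.23 and -0.075 to 0.10, and no test of Gins2 against them was made. Dbf4 (ENSMUSG00000002297, chr5:8396973-8422716, minus strand), the regulatory subunit of the CDC7 kinase, had 17.1, 18.5 and 17.1 FPKM in the controls and 16.7, 16.0 and 16.0 FPKM with metformin. All 3 metformin libraries were below all controls, by a log2 fold change of -0.11 (SE 0.04, 95% interval -0.20 to -0.015), with an unadjusted p of 0.0285 and a limma adjusted p of 0.410. It kept an unadjusted p under 0.05 in 10 of 15 settings, and without control 2 its log2 fold change was -0.074. The kinase subunit Cdc7 averaged 20.5 ± 1.2 and 19.7 ± 0.53 FPKM, with an interval of -0.16 to 0.058. Cdc45 and Mcm10 had log2 fold changes of 0.027 and -0.0016.

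Among the 8 polymerase and primase members, the polymerase delta subunits Pold1 and Pold2 were higher and the alpha catalytic subunit lower at an unadjusted p under 0.05. The shares of all tested genes were 6.03% higher and 4.81% lower. Pold1 (ENSMUSG00000038644, chr7:44532746-44548849, minus strand), the catalytic subunit of polymerase delta, which extends the lagging strand, had 20.3, 21.1 and 20.6 FPKM in the controls and 23.4, 21.9 and 22.5 FPKM with metformin. Pold2 (ENSMUSG00000020471, chr11:5872180-5878292, minus strand), its accessory subunit and the highest of this group, had 58.8, 60.9 and 62.1 FPKM in the controls and 66.3, 63.8 and 64.5 with metformin. Neither pair of groups overlapped. For Pold1 this was a log2 fold change of 0.12 (SE 0.034, 95% interval 0.041 to 0.20), with an unadjusted p of 0.00871 and a limma adjusted p of 0.350. For Pold2 it was a log2 fold change of 0.098 (SE 0.029, 95% interval 0.031 to 0.17), with an unadjusted p of 0.0106 and a limma adjusted p of 0.350. With the GC trend removed, the log2 fold changes were 0.071 and 0.053 with unadjusted p of 0.0635 and 0.0843. Pola1 (ENSMUSG00000006678, chrX:93304767-93632155, minus strand), the catalytic subunit of polymerase alpha, which makes the first DNA after the primer, had 12.01, 11.6 and 11.6 FPKM in the controls and 11.0, 10.7 and 10.4 FPKM with metformin. All metformin libraries were below the controls, by a log2 fold change of -0.12 (SE 0.036, 95% interval -0.21 to -0.04), with an unadjusted p of 0.0101 and a limma adjusted p of 0.350, and by -0.087 with an unadjusted p of 0.0573 once the GC trend was removed. Its transcript has 41.5% GC, against 60.7% for Pold1 and 58.7% for Pold2. The partners of Pola1, the subunits Pola2, Prim1 and Prim2, had log2 fold changes of 0.036, 0.007 and -0.027, and the groups overlapped in each. Pole2, a subunit of the leading-strand polymerase epsilon and the lowest of this group, had 9.81, 10.1 and 10.6 FPKM in the controls and 9.4, 9.71 and 9.43 with metformin, without overlap but at an unadjusted p of 0.0577. Pole, the catalytic subunit, had a log2 fold change of -0.033.

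The sliding clamp and clamp loader, 6 members, held 4 of the 11, with 1 higher and 3 lower. Of all tested genes, 6.03% were higher and 4.81% lower at an unadjusted p under 0.05. No test of this role against the others was made. Pcna (ENSMUSG00000027342, chr2:132249162-132253314, minus strand), the ring that tethers polymerases to DNA, had 167, 172 and 172 FPKM in the controls and 156, 158 and 169 FPKM with metformin. Metformin 3 lay within the control range, so the groups overlapped, with a log2 fold change of -0.081 (SE 0.032, 95% interval -0.16 to -0.0051), with an unadjusted p of 0.0395 and a limma adjusted p of 0.439. It kept an unadjusted p under 0.05 in 8 of 15 settings. An annotated pseudogene copy, Pcna-ps2, was listed at 3.29 FPKM, and reads may be split between them. The loader is a ring of RFC1 to RFC5, and its genes had differences of both signs. Rfc4 (ENSMUSG00000022881, chr16:23113943-23127737, minus strand) had 33.4, 33.0 and 32.3 FPKM in the controls and 30.5, 28.9 and 29.8 FPKM with metformin. The metformin libraries were all lower, by a log2 fold change of -0.14 (SE 0.03, 95% interval -0.21 to -0.072), with an unadjusted p of 0.00188 and a limma adjusted p of 0.301, the smallest p of all members. Its gene overlaps Eif4a2, at 69.0 FPKM, on the other strand by 194 bp. Rfc1 (ENSMUSG00000029191, chr5:65261850-65335670, minus strand), the large subunit, had 46.9, 45.5 and 46.9 FPKM in the controls and 44.7, 43.1 and 44.6 with metformin, again all lower, with a log2 fold change of -0.072 (SE 0.026, 95% interval -0.13 to -0.01), with an unadjusted p of 0.0284 and a limma adjusted p of 0.410, and it kept an unadjusted p under 0.05 in 10 of 15 settings. Rfc2 (ENSMUSG00000023104, chr5:134581366-134601805, plus strand) went the other way, with 23.8, 22.7 and 23.5 FPKM in the controls and 24.6, 24.5 and 24.6 with metformin. It gave a log2 fold change of 0.073 (SE 0.028, 95% interval 0.006 to 0.14), with an unadjusted p of 0.0366 and a limma adjusted p of 0.430. With the GC trend removed its log2 fold change was 0.041 with an unadjusted p of 0.215, and it kept an unadjusted p under 0.05 in 5 of 15 settings. Its gene overlaps Lat2, at 36.6 FPKM, on the other strand by 1784 bp. Rfc3, the lowest of this group, had 16.1, 16.0 and 16.4 FPKM in the controls and 16.8, 17.0 and 17.0 FPKM with metformin, all higher but at an unadjusted p of 0.0555. Rfc5 had overlapping groups and a log2 fold change of 0.074. In all, 11 members overlap a gene with a mean of at least 1 FPKM, and the use of strand in the counting is not stated. The labels name a stranded library kit and the study's methods another kit. Without strand, reads from the overlapping bases of such pairs cannot be told apart.

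**Figure D3:**
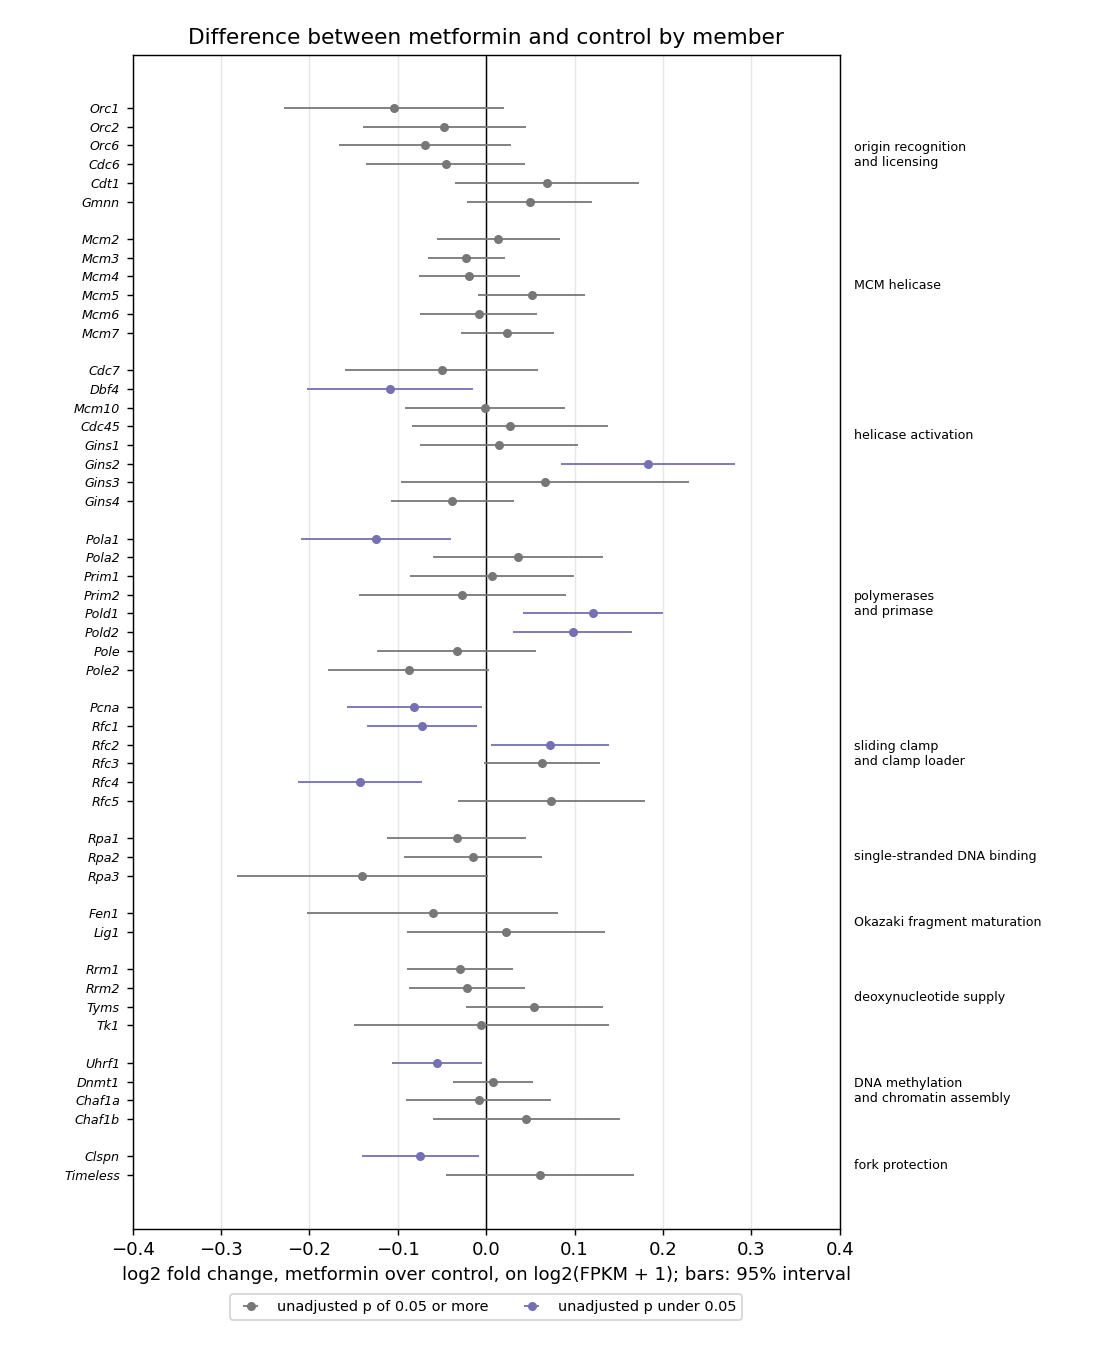
Log2 fold change of each member, metformin over control on log2(FPKM + 1), with the 95% interval from limma as bars (n = 3 libraries in each group). Members at an unadjusted p under 0.05 are violet (4 higher, 7 lower), and every interval lies between -0.28 and 0.28.

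**Figure D4:**
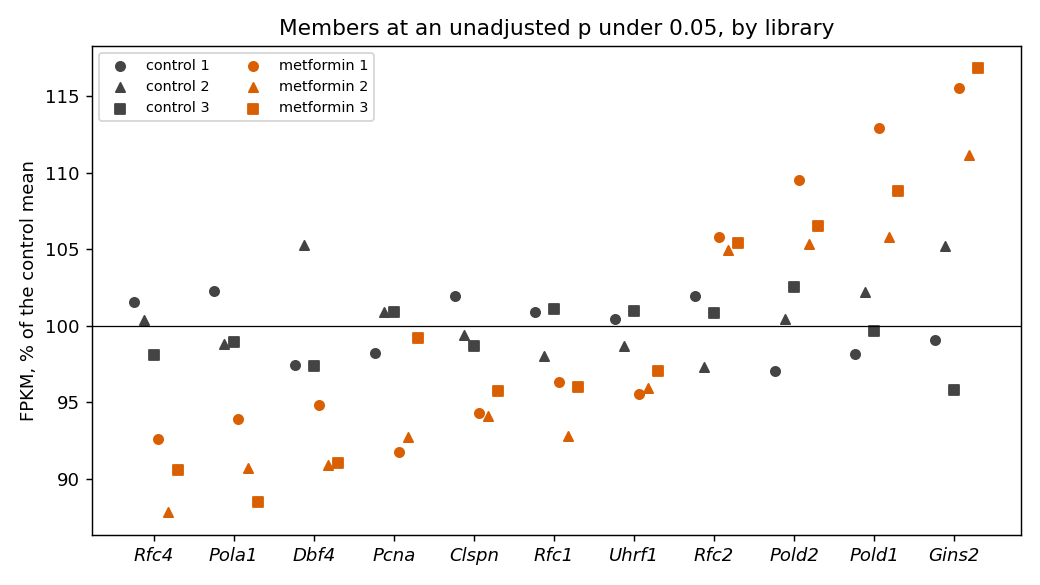
FPKM of the 11 members at an unadjusted p under 0.05 in each library, as a percentage of the mean of the 3 controls (grey for controls, orange for metformin, marker shape for the library number). Only in Pcna does a metformin library lie within the range of the controls.

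The RPA trimer, which coats single-stranded DNA at the fork, had 3 members with a lower mean with metformin and overlapping groups. Rpa1, the large subunit, was highest, with 46.5, 48.7 and 48.8 FPKM in the controls and 46.5, 45.5 and 48.6 FPKM with metformin. Rpa3, the small subunit, was lowest, with 21.1, 22.4 and 24.2 FPKM in the controls and 19.2, 20.3 and 21.8 with metformin. Rpa3 had the widest interval towards lower values, -0.28 to 0.002, and an unadjusted p of 0.0525. Its p was under 0.05 with the filter at 10 FPKM, with TPM, with quantile normalization and with a replicate block. The same held without control 1 and without metformin 3. Rpa2 averaged 40.4 ± 1.4 and 40.0 ± 0.9 FPKM. Of the genes that join Okazaki fragments, Lig1, the ligase, had 30.1, 29.5 and 31.7 FPKM in the controls and 31.4, 29.0 and 32.5 FPKM with metformin. Fen1, the flap nuclease, had 16.5, 14.2 and 15.0 FPKM in the controls and 14.2, 15.5 and 14.0 with metformin. Both pairs of groups overlapped.

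Of the 4 deoxynucleotide supply genes, none differed at an unadjusted p under 0.05. Rrm2, the S phase subunit of ribonucleotide reductase, was highest with 115, 115 and 114 FPKM in the controls and 108, 115 and 115 FPKM with metformin. Rrm1, its partner, averaged 46.1 ± 0.51 and 45.2 ± 0.98 FPKM. Tk1, the thymidine kinase of the salvage route, was lowest with 9.73, 9.12 and 8.2 FPKM in the controls and 9.1, 8.58 and 9.2 with metformin. Tyms, which makes thymidylate de novo, averaged 22.8 ± 0.82 and 23.7 ± 0.26 FPKM. Rrm2 RNA was 2.46 to 2.50 times that of Rrm1 in the controls and 2.42 to 2.57 times with metformin, and the groups overlapped.

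Behind the fork, Uhrf1 and Dnmt1 copy DNA methylation and CHAF1A and CHAF1B load new histones. Dnmt1, the maintenance methyltransferase, was highest with 83.0, 82.3 and 82.9 FPKM in the controls and 82.8, 82.9 and 83.8 FPKM with metformin, and its interval of -0.038 to 0.053 was among the narrow ones. Uhrf1 (ENSMUSG00000001228, chr17:56303321-56323486, plus strand), which brings DNMT1 to hemimethylated DNA, had 62.1, 61.0 and 62.5 FPKM in the controls and 59.1, 59.4 and 60.0 FPKM with metformin. All metformin libraries were lower, by a log2 fold change of -0.056 (SE 0.022, 95% interval -0.11 to -0.005), with an unadjusted p of 0.0355 and a limma adjusted p of 0.425. With the GC trend removed the log2 fold change was -0.083 with an unadjusted p of 0.00605, and 9 of 15 settings gave an unadjusted p under 0.05. Chaf1b, the lowest of the group, had 12.8, 12.1 and 12.6 FPKM in the controls and 12.5, 12.6 and 13.8 with metformin with overlapping groups, and Chaf1a had a log2 fold change of -0.0087. Clspn (ENSMUSG00000042489, chr4:126556935-126593903, plus strand), the checkpoint adaptor claspin that travels with the fork, had 19.8, 19.3 and 19.2 FPKM in the controls and 18.3, 18.3 and 18.6 FPKM with metformin. Again all 3 were lower, by a log2 fold change of -0.075 (SE 0.028, 95% interval -0.14 to -0.0083), with an unadjusted p of 0.0324 and a limma adjusted p of 0.421, and 10 of 15 settings gave an unadjusted p under 0.05. Timeless, its companion, had 13.6, 13.6 and 14.5 FPKM in the controls and 15.0, 13.7 and 14.9 with metformin, with overlap and a log2 fold change of 0.061.

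The other genes of replication were 69 genes that are not members. None had an adjusted p under 0.05, while 4 (5.80%) were higher and 13 (18.8%) lower at an unadjusted p under 0.05, where 6.03% and 4.81% of all tested genes were. The 4 higher genes had 54.2% to 58.0% GC, and the 13 lower ones 36.3% to 45.5% with the exception of Pold4 at 57.4%. With the GC trend removed, 1 of the 69 was higher and 1 lower, against 3.67% and 4.10% of all genes with a GC value. The lower count was 7 without control 2 or without control 3 and 8 without metformin 3, and the higher count was 1 without control 2 and 2 without control 1, without control 3 or without metformin 1. With a replicate block, 1 of the 69 was higher and 8 lower, against 5.42% and 4.23% of all tested genes. With values rescaled to TPM, 2 were higher and 14 lower, against 5.34% and 5.48%. The median log2 fold change as first fitted was -0.019. The higher ones were Rnaseh2a, Poldip2, Dctpp1 and E2f2, and the lower ones included Pold4, Tipin, Top1, Top2a, Pclaf, Atad5, Ccne2, Chek1, Hus1, Asf1a, Nasp and Hells. Pold4, the small subunit of polymerase delta, had 12.5, 12.6 and 14.3 FPKM in the controls and 11.4, 10.7 and 10.0 FPKM with metformin, a log2 fold change of -0.27 (-0.42 to -0.12) that went against those of Pold1 and Pold2. Tipin, the partner of Timeless, had 82.1, 86.8 and 83.2 FPKM in the controls and 76.5, 79.0 and 79.5 with metformin. E2f1, the E2F factor that drives S phase genes, had 9.3, 9.15 and 9.25 FPKM in the controls and 11.7, 10.8 and 8.82 FPKM with metformin, with overlap and an interval of -0.053 to 0.36. Cdkn1a, which encodes the cell cycle inhibitor p21, had 29.0, 30.0 and 27.8 FPKM in the controls and 30.4, 28.1 and 30.6 with metformin, also with overlap.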

How the data were processed

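RNA-seq values of 6 libraries were used. The authors deposited FPKM values, which already hold their mapping, counting and scaling. Their counting settings and use of strand are not given in the sources used here. The submitters' processing notes name HISAT2, DESeq2 and mm9, whereas the positions deposited with the table overlap the GRCm38.p6 gene for 49 of 49 members. No column of per-sample values was left unused. Depth was estimated from the FPKM step that 1 fragment makes in short genes (353 to 394 values per library, 100% whole within 0.1), and it limits the precision of low genes. A floor of 3 fragments on 1 kb is 0.214 to 0.224 FPKM, and it covers counting error only.

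Values were tested as log2(FPKM + 1) for genes whose mean reached 1 FPKM, with limma 3.58.1 (R 4.3.3), two-sided, with a trend and Benjamini-Hochberg adjustment over all 10661 genes. Fold changes on this scale understate those of low genes. Exact permutation of 3 against 3 libraries cannot give a p under 0.1. GC content came from GENCODE M1 transcripts. Named with values in every library were members at an unadjusted p under 0.05, the highest and lowest of each role and the MCM subunits. Other genes are named as list members, and 1 gene of these lists is counted but not reported here by name. Alternatives were another pseudocount, other filters, TPM, quantile normalization, no trend, a replicate block, leaving out each library, and removing the GC trend (loess span 0.3). The members and lists were chosen with earlier results of these data known. The fits were tested on simulated data, and figures were drawn with matplotlib 3.10.9.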

Additional observations from a re-analysis of the deposited data

How the results depend on the processing

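In all 14 alternatives 0 members had an adjusted p under 0.05 by limma, against 11 at an unadjusted p under 0.05 as reported. None of the 11 changed sign, but they had been picked by their p in these same libraries. All of them but Pcna had groups without overlap, so leaving out a library could not change their sign. Of all 49 members, up to 8 changed sign in 1 setting (without control 1). Gins2 and Rfc4 kept an unadjusted p under 0.05 in 15 of 15 settings, the reported one included. Pola1, Pold1 and Pold2 lost it only with the GC trend removed. Dbf4, Rfc1 and Clspn held it in 10 settings, Uhrf1 in 9, Pcna in 8 and Rfc2 in 5. The log2 fold change of Rfc2 was 0.073 as reported and 0.041 with the GC trend removed. With the GC trend removed, a choice made after seeing the data, 1 member was higher and 4 lower, against 3.67% and 4.10% of genes with a GC value. Without the trend on the mean 3 were higher and 4 lower, against 5.17% and 4.56% of all genes. TPM and quantile normalization each gave 3 higher and 9 lower, against 5.34% and 5.48%, and 5.24% and 5.43%, of all genes. Leaving out 1 library at a time gave 3 to 6 higher and 3 to 8 lower members at an unadjusted p under 0.05, and 5 to 10 above and 7 to 13 below the other group, since fewer libraries overlap more rarely. Over all genes these fits gave 4.82% to 5.88% higher, 3.69% to 4.77% lower, 13.8% to 14.7% above and 12.2% to 13.1% below. The cause of the other shifts was not tested. Over all genes, 7 had an adjusted p under 0.05 without a filter (22809 genes). Calls over all genes at an unadjusted p were 55.6% higher as reported, 49.3% with TPM, 49.1% with quantile normalization and 47.2% with the GC trend removed. Of the 69 other replication genes, 4 were higher and 13 lower as reported, 2 were higher with TPM, 1 was higher and 8 lower with the replicate block, and 1 was higher and 1 lower with the GC trend removed. Leaving out 1 library gave 1 to 3 higher and 7 to 10 lower. Libraries showed no clear likeness by replicate number (mean r of 0.011 for same numbers, -0.0057 for others, with 2 of 6 libraries closest to their own number). So few libraries cannot show whether the numbers mark shared cultures or preparation. A replicate block gave 3 higher and 5 lower members (Dbf4, Rfc2, Uhrf1 and Clspn lost their p under 0.05 and Rpa3 gained one), against 5.42% and 4.23% of all genes, a smallest adjusted p of 0.459 (0.197 to 0.472 over the alternatives) and 2 genes called over all. Depth limits low members such as Gins3 most.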

Other observations

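Ratios between replication genes, mostly subunits of 1 complex, were formed within each library after the values above had been seen, and they carry no test. Rfc4 RNA was 1.37 to 1.46 times that of Rfc2 in the controls and 1.18 to 1.24 times with metformin, so the groups did not overlap. Against Rfc3 it was 1.97 to 2.08 times and 1.70 to 1.82 times. The catalytic subunits of polymerases delta and alpha, Pold1 and Pola1, stood at 1.69 to 1.82 in the controls and 2.06 to 2.17 with metformin. The GINS pair Gins2 and Gins4 stood at 0.374 to 0.390 and 0.439 to 0.462. For Pold4 and Pold2 the ratio was 0.207 to 0.231 in the controls and 0.155 to 0.172 with metformin. Pold2 and Pold1, both higher with metformin at an unadjusted p under 0.05, stood at 2.88 to 3.01 in the controls and 2.84 to 2.92 with metformin, with overlap. Of pairs in which neither gene had an unadjusted p under 0.05, Mcm3 and Mcm2 stood at 2.93 to 3.01 in the controls and 2.86 to 2.96 with metformin, Gins4 and Gins3 at 4.91 to 5.57 and 4.61 to 5.05, and Orc2 and Orc1 at 4.44 to 5.11 and 4.51 to 5.27, with overlap in each. The pairs before these were chosen because 1 gene of the pair or both had differed at an unadjusted p under 0.05. For Rfc4 with Rfc2 or Rfc3, Pold1 with Pola1 and Pold4 with Pold2, both genes had groups without overlap, in opposite directions. Their ratios therefore had to lie apart too, and they add nothing to the values of the single genes. Rfc4 and Rfc2 have 43.5% and 54.8% GC in their transcripts. Rrm2 and Rrm2b, the S phase and the p53-induced small subunits of ribonucleotide reductase, stood at 54.4 to 61.4 in the controls and 57.6 to 69.5 with metformin, with overlap.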
